A study of Mus musculus with 6 samples.

Results

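Natural killer group 2D (NKG2D) ligand genes were examined by RNA-seq in the corneal epithelium of mice that lacked *Ptch1* in Prrx1-lineage cells and of control mice. The members were the 5 genes of the table that encode these ligands, *H60b*, *H60c*, *Raet1d*, *Raet1e* and *Ulbp1*, among 17784 genes listed. They were chosen by name from earlier results of this same comparison, so their values in it are described here and are not tested. The deleted group, called Ptch1Prrx1, carried *Prrx1-CreERT* with floxed *Ptch1*, and the other group held control mice titled WT, whose further genotype the labels do not give. Each group had 3 samples. Per the labels, mice of both groups were 10 weeks old and received 3 doses of tamoxifen, with a time of 2 months attached to that treatment. Prrx1-CreERT is active in keratocytes, the fibroblast-like cells of the corneal stroma, and also in corneal endothelium. It is not directed at the epithelium that was sequenced, so the comparison asks what epithelial cells express when the neighbouring stroma has lost *Ptch1*. Per the labels the epithelium was lifted with EDTA, and the study describes biological replicates without saying whether a sample was 1 mouse or a pool.

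NKG2D is an activating receptor on natural killer cells, on CD8 T cells and on some gamma delta T cells, and it signals through the adaptor proteins encoded by *Hcst* and *Tyrobp*. Its ligands resemble MHC class I molecules but present no peptide. They are scarce on most resting cells and become more abundant on cells that are stressed, infected, transformed or damaged. In the mouse they fall into the H60 proteins, the RAE-1 proteins encoded by the *Raet1* genes, and MULT1, encoded by *Ulbp1*. *H60c* is known from skin, where epidermal keratinocytes express it. The *Raet1* products are held in the membrane by a glycosylphosphatidylinositol (GPI) anchor, whereas MULT1 spans the membrane. *Klrk1*, which encodes NKG2D itself, and the *H60a*, *Raet1a*, *Raet1b* and *Raet1c* genes were not analysed here.

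All 5 members lie on mouse chromosome 10. Because the *Raet1* and *H60* genes arose by duplication, a sequencing read can match more than 1 of them, and RSEM, the program the authors used, divides such a read among its matches. The extent of this was measured on GENCODE M21 transcripts as the share of a gene's 50-base runs that occur in any other gene. The share was 55.8% for *Raet1d*, all with *Raet1e*, and 44.7% for *Raet1e*, which shared 40.3% with *Raet1d* and 4.36% with *H60b*. It was 7.58% for *H60b*, 5.69% for *H60c* and 1.76% for *Ulbp1*. *H60c* shared no 50-base run with another member. Its shared runs lay in *Gm10825*, *Gm26581* and *9230019H11Rik*, and the last of these had means of 0.982 normalized counts in control samples and 1.70 in Ptch1Prrx1 samples, while the first pair were not analysed here. With 100-base runs the shares were 35.7% for *Raet1d*, 26.8% for *Raet1e*, 3.46% for *H60c*, 3.21% for *H60b* and 0.248% for *Ulbp1*. *H60c* and *Ulbp1* thus share little sequence with other genes, whereas reads from the shared runs of *Raet1d* and *Raet1e* cannot be assigned to either gene with certainty. Expected counts of *H60c* lay within 0.05 of a whole number in all 6 samples, and those of *Ulbp1* were whole.

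**Figure D1:**
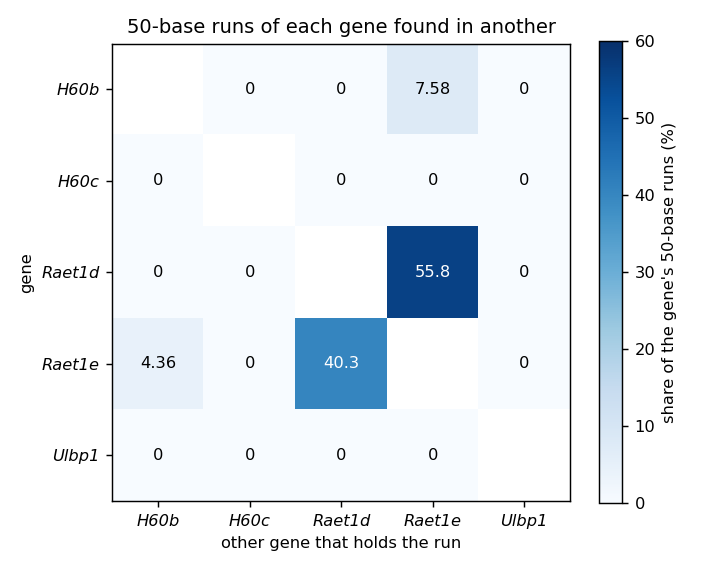
Percent of each member's 50-base transcript runs (row) that also occur in another member (column), with the diagonal left blank. The highest values join *Raet1d* and *Raet1e*, at 55.8% and 40.3%, and *H60c* and *Ulbp1* share none with another member.

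The likeness of the *Raet1* genes extends to the bases before their start sites, which is why both are shown. RefSeq promoters (build GRCm38.p6) were matched for 4 of the 5 members, with *Raet1e* entered at 2 start sites, and the 250 bases before each start were read on the gene's strand. The *Raet1d* window at chr10:22361644-22361893 (plus strand) and the second *Raet1e* window at chr10:22173247-22173496 (plus strand) matched at 245 of 248 aligned bases, or 98.8%. Capitals mark the 3 bases that differ.
Raet1d: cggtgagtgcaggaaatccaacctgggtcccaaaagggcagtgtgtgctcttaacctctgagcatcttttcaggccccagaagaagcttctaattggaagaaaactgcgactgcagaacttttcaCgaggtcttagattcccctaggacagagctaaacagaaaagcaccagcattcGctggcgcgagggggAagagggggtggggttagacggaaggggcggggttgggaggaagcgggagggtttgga
Raet1e: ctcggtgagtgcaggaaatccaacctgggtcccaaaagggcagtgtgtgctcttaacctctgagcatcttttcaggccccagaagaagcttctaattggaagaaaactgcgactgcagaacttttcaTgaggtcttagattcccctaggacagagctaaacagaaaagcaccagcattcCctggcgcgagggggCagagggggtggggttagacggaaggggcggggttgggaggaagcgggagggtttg
The other *Raet1e* start site gave no such likeness. At the ungapped offset with the most matches to *Raet1d*, 71 of 242 aligned bases matched, or 29.3%.

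The *H60c* window, at chr10:3267772-3268021 (minus strand), is shown because *H60c* is the member with the highest level and the widest absolute difference between groups. Its capitals mark GGAATG, the core motif bound by TEAD factors, which are the DNA-binding partners of the Hippo effector YAP. The motif begins 236 and 58 bases before the start.
H60c: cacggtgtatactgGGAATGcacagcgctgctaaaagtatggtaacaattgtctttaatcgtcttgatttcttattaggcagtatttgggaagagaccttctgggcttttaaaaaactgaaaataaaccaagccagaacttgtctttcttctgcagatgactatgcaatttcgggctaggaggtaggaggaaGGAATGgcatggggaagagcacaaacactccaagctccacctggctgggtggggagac
In all, 8 motifs were searched on both strands, and any GGAATG was present in 12.6% of 32851 RefSeq promoter windows of the same length. The *H60c* window held none of the other 7, which were TGANTCA of AP-1 (6.75% of windows), the NF-kB motif (7.25%), TTTNNCGC of E2F (4.28%), GAANNTTC of heat shock factors (6.69%), GGGCGG of SP1 (32.7%), the TATA box TATAAA (12.4%) and GACCACCCA of GLI (0.225%). The *Ulbp1* window, at chr10:7473478-7473727 (minus strand), held none of the 8. The paired *Raet1* windows both held a heat shock motif and an SP1 motif, and the *Raet1e* window also held GGAATG on the opposite strand, across a base at which the pair differ. A match in such a window is a description of its letters and not a binding site.

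Depth was nearly even, with 20415942 to 20550100 expected counts in control samples and 20296741 to 20625813 in Ptch1Prrx1 samples, so that 3 counts equal 0.145 to 0.148 CPM, the count scaled to library size. Of the genes listed, 12999 passed the filter on low counts and entered the edgeR fit. A gene was called when its adjusted p was at most 0.05 and its fold change at least 2. This held for 304 genes that were higher in Ptch1Prrx1 samples (2.34% of those tested) and for 116 that were lower (0.892%). Ptch1Prrx1 replicate 1 stood apart, being the highest sample for 82.2% of the genes called higher and the lowest for 68.1% of those called lower. *Ptch1* itself had 517, 659 and 682 normalized counts in control epithelium and 390, 445 and 471 in Ptch1Prrx1 epithelium, where Prrx1-CreERT is not directed. The epithelial label was borne out by markers such as *Krt12* and *Krt5*, whose list summed to 100000 to 108000 TPM in control and 90600 to 111000 TPM in Ptch1Prrx1 samples. Within that list *Krt14*, a keratin of basal epithelial cells, was called higher, at 8184, 7760 and 9282 normalized counts in control and 93094, 48670 and 35435 in Ptch1Prrx1 samples (log2 fold change 2.81, edgeR adjusted p = 0.00769). *Pax6*, a transcription factor of corneal identity, was lower without overlap and was not called (-0.22, edgeR adjusted p = 0.112). In bulk samples fewer cells of a type and less RNA per cell cannot be told apart.

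*H60c* (gene 670558) was the most abundant of the members in all 6 samples and the only member called, with the widest difference between groups in absolute level. Control samples had 347, 299 and 212 normalized counts, with a mean of 286 ± 68.5 (SD, n = 3). Ptch1Prrx1 samples had 3259, 2239 and 1891, with a mean of 2460 ± 711 (SD, n = 3). Every Ptch1Prrx1 sample lay far above every control sample. The fold change of the means was 8.62, and the fitted log2 fold change was 3.11 (SE 0.25). Replicates varied by a similar proportion in both groups, with a coefficient of variation of 24.0% in control and 28.9% in Ptch1Prrx1 samples. Replicate 1 was the highest of the Ptch1Prrx1 samples, and without it the log2 fold change was 2.86.

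On the TPM scale, which is adjusted for gene length, *H60c* stood at 12.6, 11.3 and 8.23 in control samples and at 115, 82.4 and 72.8 in Ptch1Prrx1 samples. The means were 10.7 ± 2.25 and 89.9 ± 21.9 TPM (SD, n = 3 each), a difference of 79.2 TPM. Among the 17784 listed genes, ordered by TPM from the highest, *H60c* moved from ranks 7612, 8087 and 9036 in control samples to ranks 1268, 1845 and 2197 in Ptch1Prrx1 samples. These ranks correspond to percentiles of 49.2 to 57.2 in control and 87.7 to 92.9 in Ptch1Prrx1 samples. The ratio of count to TPM, set against the median gene of the same sample, reflects the length of the transcripts to which reads were assigned. It was 0.958 to 0.973 in control and 0.963 to 0.965 in Ptch1Prrx1 samples, ranges that differ by less than the spread within the control samples. GENCODE lists 3 *H60c* transcripts, of 1074 to 2817 bases.

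**Figure D2:**
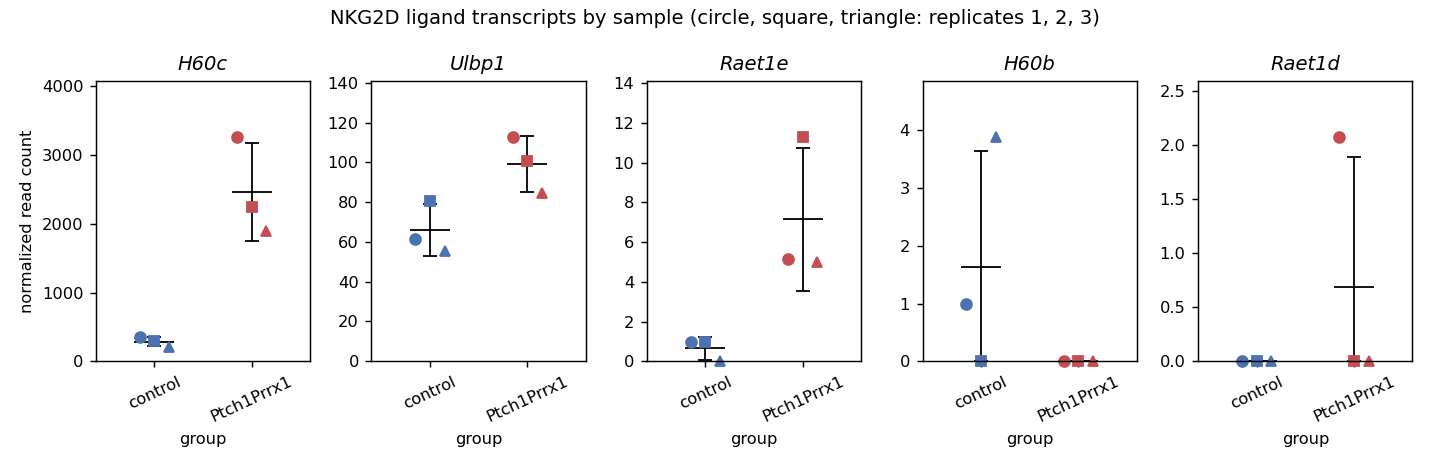
Normalized counts of each NKG2D ligand gene in the 3 control and 3 Ptch1Prrx1 samples, with points for samples and bars for the mean ± SD, the lower end of a bar being cut at 0 where it would fall below. Each panel has its own vertical scale, with *H60c* at 212 to 347 in control and 1891 to 3259 in Ptch1Prrx1 samples and the 3 sparse genes on the right.

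*Ulbp1* (gene 77777), which encodes MULT1, was the other member expressed above the filter. Control samples had 61.6, 80.6 and 55.3 normalized counts and Ptch1Prrx1 samples had 113, 101 and 84.6. The groups did not overlap, but the lowest Ptch1Prrx1 sample and the highest control sample were close. The means were 65.9 ± 13.2 and 99.3 ± 14.1 normalized counts (SD, n = 3 each), a 1.51-fold difference, and the log2 fold change was 0.59 (SE 0.21). This was below the fold of 2 required for a call. On the TPM scale the means were 4.11 ± 0.967 and 6.28 ± 0.879 (SD, n = 3 each), a difference of 2.16 TPM. Leaving out Ptch1Prrx1 replicate 1 gave a log2 fold change of 0.49. *Ulbp1* transcripts in GENCODE range from 383 to 5959 bases, and the count-to-TPM ratio was 0.566 to 0.610 of the median gene in control and 0.542 to 0.591 in Ptch1Prrx1 samples.

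The remaining 3 members were at or near the limit of detection and did not pass the filter. *Raet1e* (gene 379043), which encodes RAE-1ε, had expected counts of 1, 1 and 0 in control samples and 5.08, 11 and 5 in Ptch1Prrx1 samples. The groups did not overlap. Summed over samples and rounded, the counts were 2 and 21. Their depth-adjusted ratio of 10.9 describes few reads and was not tested. Reads from *Raet1d* could have contributed to either sum, given the shared runs. *Raet1d* (gene 56554), which encodes RAE-1δ, was listed at 0 in 5 samples and at an expected count of 1.92 in Ptch1Prrx1 replicate 1. That value and the 5.08 of *Raet1e* in the same sample were the only expected counts of *Raet1d* or *Raet1e* that were not whole. *H60b* (gene 667281) went the other way, with counts of 1, 0 and 4 in control samples and 0 in all Ptch1Prrx1 samples. At these counts no fold change is given for *Raet1d* or *H60b*, and a difference was not detectable at this depth.

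Thus 2 of the 5 members passed the filter and 1, *H60c*, reached the thresholds of a call, beside 3.23% of all tested genes called in either direction and 2.34% called higher. The samples of *H60c*, *Ulbp1* and *Raet1e* did not overlap between groups, with Ptch1Prrx1 samples higher. The share over tested genes, which leave out *Raet1e*, was 19.7%. Nothing is read from these counts, because the same comparison was known when the members were chosen.

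The summed TPM of the 5 ligand genes was 15.1 ± 2.46 (SD, n = 3) in control and 96.8 ± 22.7 (SD, n = 3) in Ptch1Prrx1 samples, a 6.42-fold difference. *H60c* contributed 77.1%, 67.9% and 67.2% of this sum in the control samples and 93.8%, 91.9% and 92.7% in the Ptch1Prrx1 samples. Its mean share was 70.7% ± 5.48 in control and 92.8% ± 0.959 in Ptch1Prrx1 samples (SD, n = 3 each). *Ulbp1* accounted for 27.4% ± 5.04 in control and 6.58% ± 0.735 in Ptch1Prrx1 samples (SD, n = 3 each), although its own level was higher in the latter. *H60b* accounted for 0.671%, 0% and 3.84% in the control samples, and *Raet1e* for a mean of 0.344% in control and 0.582% in Ptch1Prrx1 samples. The sum over these 5 genes was thus a mixture of *H60c* and *Ulbp1* in control epithelium and almost entirely *H60c* in Ptch1Prrx1 epithelium. *H60a*, *Raet1a*, *Raet1b* and *Raet1c* are not part of it.

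**Figure D3:**
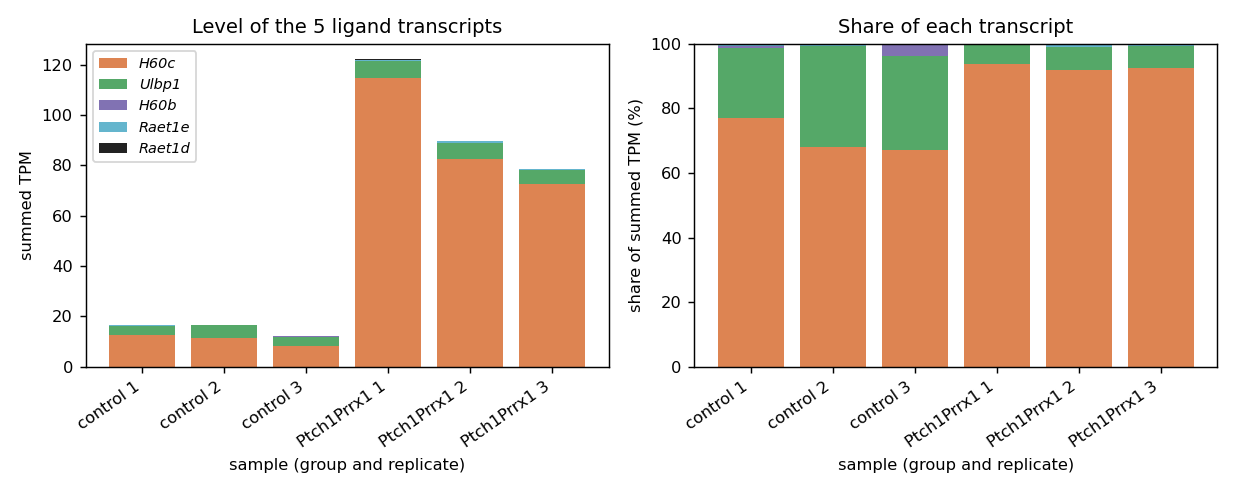
Stacked TPM of the 5 NKG2D ligand genes per sample (left) and the percent of each sample's sum held by each gene (right). The sums lie at 12.2 to 16.6 TPM in control and 78.5 to 122 TPM in Ptch1Prrx1 samples, and *H60c* fills 67.2% to 77.1% of the control bars and 91.9% to 93.8% of the Ptch1Prrx1 bars on the right.

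The cells that could read these ligands left few transcripts in the samples. *Hcst*, the DAP10 adaptor of NKG2D, had counts of 0 in every control sample and of 1, 0 and 0 in Ptch1Prrx1 samples. *Tyrobp*, the DAP12 adaptor, had 7, 2 and 4 against 6, 1 and 1. Neither could be tested. Of the natural killer and cytotoxic genes, 4 of 10 were listed and 1 passed the filter. That gene was *Cd8a*, a co-receptor of cytotoxic T cells, with means of 11.1 and 7.78 normalized counts and a log2 fold change of -0.51 (edgeR, adjusted p = 0.406). *Eomes*, a transcription factor of cytotoxic lymphocytes, had summed counts of 6 and 22 and was not tested. The list summed to 0.370 to 0.700 TPM in control and 0.540 to 0.640 TPM in Ptch1Prrx1 samples.

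Among 8 listed genes of T cells and gamma delta T cells, 2 passed the filter. With edgeR 0 were called, with 1 at an unadjusted p under 0.05, and with limma-voom 0 were called, whereas DESeq2 called *Jaml*. *Jaml*, a co-stimulatory receptor on gamma delta T cells of epithelia, had counts of 17, 10 and 12 in control samples and of 49, 20 and 31 in Ptch1Prrx1 samples. The groups did not overlap, and its log2 fold change of 1.40 (SE 0.41) missed the threshold (edgeR, adjusted p = 0.0582). *Cd247*, the zeta chain of the T cell receptor complex, had a log2 fold change of 0.04 (edgeR, adjusted p = 0.961). *Cd3e*, a defining T cell gene, had 3 counts in each group, and *Zap70*, a kinase of T cell signalling, had 19 and 5. The list summed to 3.82 to 5.10 TPM in control and 3.39 to 6.90 TPM in Ptch1Prrx1 samples. A further immune marker list, of leukocyte and myeloid genes, summed to 129 to 171 and to 155 to 292 TPM, and *Ptprc*, the pan-leukocyte gene, had 12 counts in each group. *Itgam* and *Cd68*, myeloid genes that made up most of the sum in control samples, were higher without overlap and were not called. Their log2 fold changes were 0.48 (edgeR, adjusted p = 0.0759) and 0.27 (edgeR, adjusted p = 0.213). The other tested genes of the list overlapped, with -0.45 for *Cd74* (edgeR, adjusted p = 0.464) and 0.08 for *H2-Aa* (edgeR, adjusted p = 0.929). Among untested myeloid genes, *Csf1r* had 19 and 24 counts, *Lyz2* 5 and 4, and *Adgre1* 3 and 0. Which cells the *Itgam* reads came from was not tested. The highest sum was that of Ptch1Prrx1 replicate 1, where *S100a8*, a gene of neutrophils and of stressed epithelium, had 266 counts against 0 to 3 in every other sample.

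The list of GPI anchor genes, whose products build and attach the anchor on which RAE-1 proteins depend, held 21 genes, all tested, but not every gene of that pathway. Of these 21 genes 0 were called with edgeR, DESeq2 or limma-voom, with 3 higher and 6 lower at an unadjusted p under 0.05 (edgeR). The median log2 fold change was -0.05, beside -0.01 over all tested genes. The members with the highest counts were *Piga*, of the enzyme that starts the anchor, with a log2 fold change of 0.23 (edgeR, adjusted p = 0.0509), and *Pigt*, of the transamidase that attaches it, with -0.04 (edgeR, adjusted p = 0.711). *Pigc* (-0.72, edgeR adjusted p = 0.00447) and *Pigm* (0.32, edgeR adjusted p = 0.0306) passed on p but not on fold. They were named after their values were seen. So was *Pigz*, a GPI mannosyltransferase gene that was not on the list and was called higher. It had means of 16.0 ± 8.30 and 137 ± 78.9 normalized counts (SD, n = 3 each) and a log2 fold change of 3.09 (SE 0.55, edgeR adjusted p = 0.0171). Of 8 listed genes for shedding and turnover, 6 were tested and 0 were called with edgeR, DESeq2 or limma-voom. At an unadjusted p under 0.05 (edgeR) 2 were higher and 2 lower, and the median log2 fold change was 0.05. The highest counts were those of *Mmp14*, a membrane metalloprotease, with a log2 fold change of 0.44 (SE 0.09, edgeR adjusted p = 0.0253), and of *Adam10*, a sheddase, with 0.20 (edgeR, adjusted p = 0.140). *Mmp14* thus passed on p and fell short of the fold.

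The list of genes known from other tissues to act upstream of NKG2D ligands held 17 genes, all tested. Of these 1 was called higher and 0 lower, beside 2.34% and 0.892% of all tested genes. The called gene was *Jun*, a subunit of the AP-1 transcription factor. It had 1741, 1827 and 1767 normalized counts in control samples and 13440, 9411 and 6608 in Ptch1Prrx1 samples. It rose by a log2 fold change of 2.47 (SE 0.24, edgeR adjusted p = 0.00436), and the groups were far apart. Another 4 genes passed on p but not on fold and were named after their values were seen. These were *Nfkb1*, an NF-kB subunit (log2 fold change 0.50, edgeR adjusted p = 0.00880), *Junb*, another AP-1 subunit (0.73, 0.0107), *Myc*, a growth regulator (0.91, 0.0153), and *E2f3*, a cell cycle factor (0.52, 0.0282). The share of all tested genes that passed on adjusted p alone was not worked out, so nothing is read from the number that did. The median log2 fold change of the list was 0.27, beside -0.01 over all tested genes. Of the 17 genes, 8 were higher and 1 lower without overlap between groups. Over all tested genes 19.7% were higher and 20.3% lower without overlap. *Trp53*, which encodes p53, had 0.23 (edgeR, adjusted p = 0.0552), and *E2f1* had 0.56 (edgeR, adjusted p = 0.156).

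Of 21 listed genes for other signals from epithelium to lymphocytes, 16 were tested and 2 were called higher, beside 2.34% of all tested genes. *Il1a*, the epithelial alarmin interleukin-1α, had 558, 555 and 541 normalized counts in control samples and 1663, 933 and 1032 in Ptch1Prrx1 samples. The log2 fold change came to 1.13 (SE 0.21, edgeR adjusted p = 0.0182), and it fell to 0.84 and lost the call without Ptch1Prrx1 replicate 1. The call was also lost without any single control sample (edgeR, adjusted p from 0.0543 to 0.0850). *Tslp*, an epithelial cytokine that acts on dendritic cells and lymphocytes, had 25.8, 19.7 and 22.3 against 64.1, 52.3 and 46.8 normalized counts. Its log2 fold change was 1.26 (SE 0.24, edgeR adjusted p = 0.0192), and its call was lost without control replicate 2 (edgeR, adjusted p = 0.0928) or 3 (edgeR, adjusted p = 0.0563). The 14 genes of the MHC class I list, relatives of the ligands that do present peptide and the genes that supply their peptides, were all tested. With edgeR and DESeq2 0 were called, with 2 higher at an unadjusted p under 0.05 (edgeR), and the median log2 fold change was 0.06. The most abundant were *H2-D1* with 0.14 (edgeR, adjusted p = 0.448) and *H2-K1* with 0.15 (edgeR, adjusted p = 0.578). *H2-Q7*, named after its values were seen, had counts of 0, 0 and 10 in control and of 18, 19 and 20 in Ptch1Prrx1 samples. Its log2 fold change of 2.52 (SE 0.90) missed the threshold in edgeR (adjusted p = 0.0972), and limma-voom called it.

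Across the 8 lists, 77 of 95 listed genes were tested. Of these 3 were called higher, or 3.90%, beside 2.34% of all tested genes, and 0 were called lower with edgeR, DESeq2 or limma-voom, beside 0.892% (edgeR). At an unadjusted p under 0.05 (edgeR) 17 were higher and 9 lower. The share of all tested genes at that p was not worked out. Nothing is therefore read from such counts, here or for any single list. Their median log2 fold change was 0.08. The groups did not overlap for 20.8% of them in the higher direction and for 10.4% in the lower direction, beside 19.7% and 20.3% of all tested genes. The count of calls is thus near the background.

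**Figure D4:**
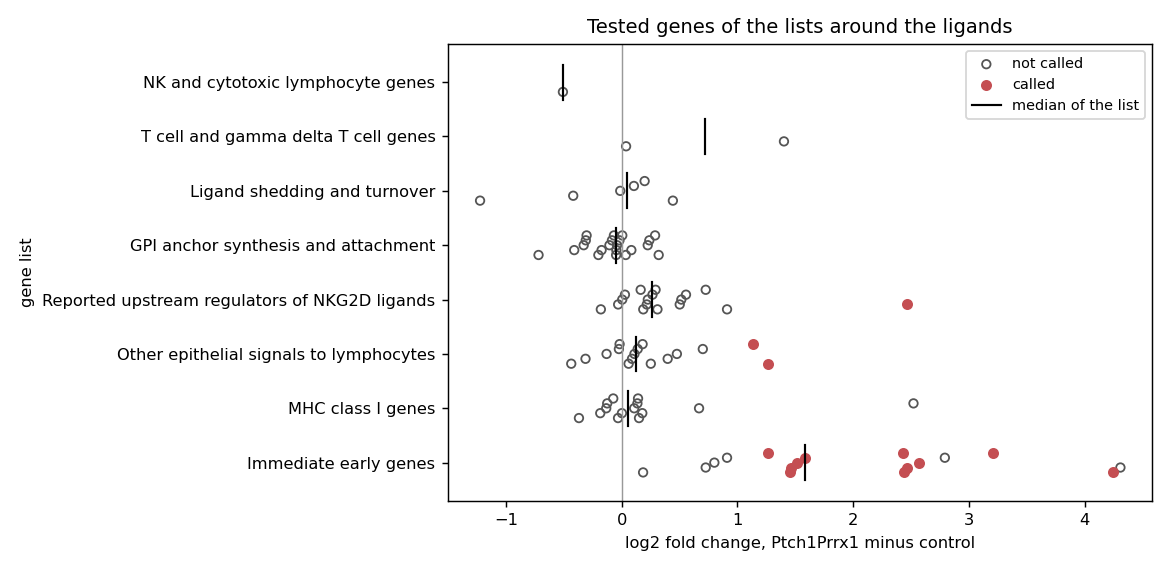
Log2 fold change (Ptch1Prrx1 minus control) of every tested gene of the companion lists and of the immediate early gene list, with called genes filled and the median of each list as a vertical bar. Most points lie near 0, *Jun* stands at 2.47 among the upstream regulators, the open point at 2.52 in the MHC class I row is *H2-Q7*, and 11 of the 17 immediate early genes are called.

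Immediate early genes, which cells switch on within minutes of a stimulus or handling, differed between groups in the same direction as *H60c*. Of 17 such genes, all tested, 11 were called higher, beside 2.34% of all tested genes, and 0 lower, beside 0.892%. The median log2 fold change was 1.59, beside -0.01. *Jun*, *Junb* and *Myc* belong to this list as well as to that of upstream regulators. Within the Ptch1Prrx1 samples *Jun* and *Dusp1* were highest in replicate 1, like *H60c*. There *Fos* (4100, 8189 and 5881 normalized counts) and *Egr1* (6279, 9804 and 6323) were highest in replicate 2. The 17 genes summed to 2420 to 2800 TPM in control and 4440 to 5260 TPM in Ptch1Prrx1 samples. Conjunctival markers summed to 1390 to 2320 TPM in control and 2180 to 4680 TPM in Ptch1Prrx1 samples, with 0 of 4 called by edgeR, 3 higher at an unadjusted p under 0.05, and *Krt4* called by DESeq2. Stromal markers summed to 10.1 to 55.9 and 8.24 to 12.6 TPM, with 4 tested and 0 called higher or lower by edgeR. The highest sum was that of control replicate 3. *Col1a2* had counts of 86, 45 and 1276 in control and of 102, 128 and 4 in Ptch1Prrx1 samples. Untested stromal genes went both ways, with *Kera* at 2 counts in control and 0 in Ptch1Prrx1 samples, *Dcn* at 12 and 47, and *Ptgds* at 3 and 12. Corneal endothelial markers (24.0 to 27.7 and 25.9 to 29.9 TPM) and melanocyte markers (8.11 to 9.24 and 8.55 to 9.76 TPM) had overlapping ranges. Vascular endothelial markers summed to at most 0.320 TPM in any sample. The part of the immediate early genes, *Krt14*, the immune, stromal and conjunctival markers and replicate 1 in the ligand values was not tested.

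The genes whose profile over the 6 samples was most like that of a member were sought among 10323 genes with at least 100 normalized counts on average. Likeness was the root mean square difference of log2 normalized counts, each centred on the gene's own mean. For *H60c* the nearest were *Nr4a1*, an early response nuclear receptor, at 0.291, *Csn3*, which encodes kappa-casein, at 0.360, and *Dusp1*, a phosphatase that switches off MAP kinases, at 0.379. Their mean normalized counts in control and Ptch1Prrx1 samples were 28.5 and 265 for *Nr4a1*, 37.0 and 259 for *Csn3*, and 1395 and 7501 for *Dusp1*. The corresponding log2 fold changes were 3.21, 2.80 and 2.43, and *Nr4a1* and *Dusp1* are among the immediate early genes above. For *Ulbp1* the nearest were *Ier5l* at 0.0822, *Wdr62*, a spindle protein gene, at 0.0834, and *Slc1a5*, a glutamine transporter gene, at 0.102, with log2 fold changes of 0.44, 0.46 and 0.50. The values describe 6 samples that also share their group difference.

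**Figure D5:**
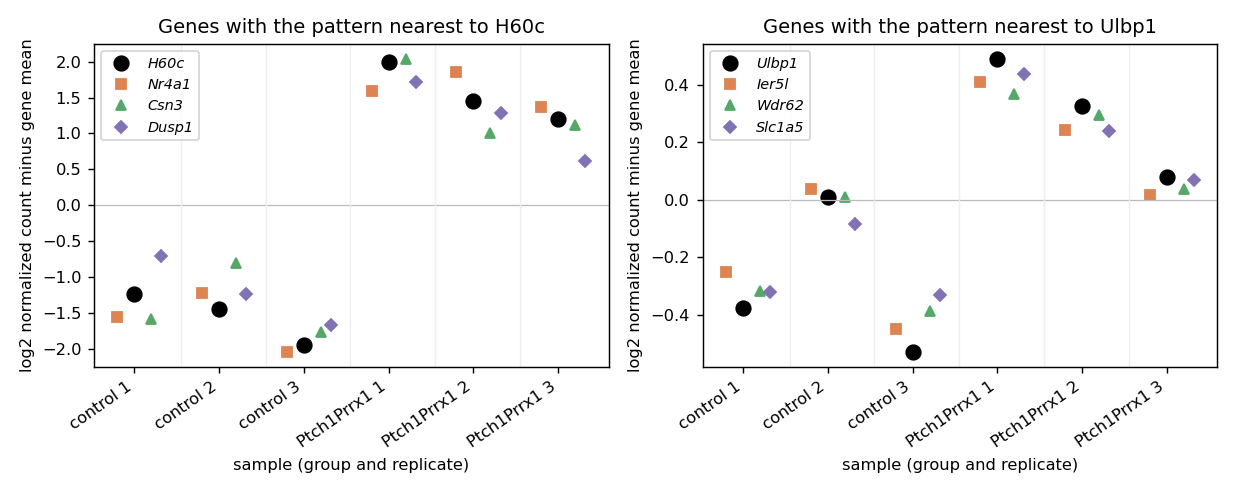
Log2 normalized counts, centred on each gene's mean, in the 6 samples for *H60c* (left) and *Ulbp1* (right) with the 3 nearest genes of each. The *H60c* genes lie below 0 in every control sample and above 0 in every Ptch1Prrx1 sample, and the vertical scale on the right is narrower.

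Genes next to *H60c* and *Ulbp1* in RefSeq order had smaller fitted differences than *H60c*. They were chosen after the values were seen. On the side of *H60c* where tested genes lie, *Ppp1r14c* had a log2 fold change of 0.30 (edgeR, adjusted p = 0.0746), *Plekhg1* had 0.13 (edgeR, adjusted p = 0.200) and *Mthfd1l* had 0.39 (edgeR, adjusted p = 0.392). The 6 tested neighbours of *Ulbp1* had log2 fold changes from -0.21 for *Lrp11* to 0.37 for *Nup43*, and no neighbour of either gene passed the threshold on p (edgeR).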

How the data were processed

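RNA-seq of corneal epithelium was analysed for 3 control and 3 Ptch1Prrx1 samples, grouped by the labels. Per the labels, the authors' processing named Bowtie2 2.2.5, RSEM 1.2.12 and the build mm9. The deposited expected counts are RSEM estimates per gene, and the deposited TPM values are scaled by RSEM for length and depth. The authors' group averages and fold changes were not used, and 0 other sample columns were present. Of values above 0, 39.4% were not whole (tolerance 0.005), a sign of divided reads.

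Expected counts were rounded and fitted with edgeR 4.0.16 in R 4.3.3 (quasi-likelihood, TMM, filterByExpr). Of 17784 genes, 12999 were tested. Adjusted p values are Benjamini-Hochberg values over all of them. Normalized counts are CPM on TMM-scaled libraries, multiplied by the mean scaled library. Calls required an adjusted p no higher than 0.05 together with a 2-fold difference. Standard errors came from the log2 fold change and the F statistic. On simulated counts of 12884 genes, with 200 changed by a log2 fold change of 1.5, 89.0% were recovered and 6.81% of calls were false.

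The members and lists were chosen with earlier results of these data known. Genes were named by rule: all members, the receptor and adaptors, called genes of each list or, with none called, the 2 most abundant, and the 3 nearest profiles of each member. Other genes named, among them tested markers and uncalled genes of the lists, fell outside this rule and were picked with their values at hand. Alternatives were DESeq2 1.42.0, limma 3.58.1 (voom, and log2 TPM), other size factors and filters, a replicate block, and each sample left out. Promoter sequences are RefSeq's for GRCm38.p6, and no other coordinates are given because the builds differ. The p values set the group difference against the spread between these samples, which the fit estimates with help from other genes.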

Additional observations from a re-analysis of the deposited data

How the results depend on the processing

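The log2 fold change of *H60c* ranged from 2.86 to 3.27 and that of *Ulbp1* from 0.48 to 0.76 over all alternatives that were run, and both stayed positive. The other 3 members were too sparse for a fitted value under the filter used. Counts of calls depended more on the processing. The 420 genes called (304 higher, 116 lower) became 234 (165 and 69) when log2 TPM values (pseudocount 1) were fitted with limma. Leaving out each sample in turn gave 59 to 430 calls, of which 45 to 298 were higher and 14 to 132 lower. The lowest came without control replicate 2, and without Ptch1Prrx1 replicate 1 there were 273. Companion genes called higher numbered 1 to 4 when each sample was left out. *Jun* kept its call in every alternative run, *Il1a* lost it in 4 and *Tslp* in 3, including that limma fit (0.94). The cause was not tested.

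Shares of the ligand sum taken from rounded expected counts instead of TPM, and so without the length adjustment, were 80.4% for *H60c* in control and 95.7% in Ptch1Prrx1 samples, and 18.9% and 3.96% for *Ulbp1*. Leaving out samples gave *H60c* shares of 67.6% to 72.5% and 92.3% to 93.2%.

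Deviations of samples with the same replicate number had correlations from -0.0417 to 0.0802. Samples with different numbers were not compared in this way, so whether the numbers mark a batch or a pairing was not settled. With a replicate block, 390 genes were called (278 higher, 112 lower), *H60c* had a log2 fold change of 3.10 and *Ulbp1* of 0.60, and 4 companion genes were called.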
